A study of Sus scrofa with 17 samples.

Results

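Muscle RNA of piglets on either of the 2 seaweed diets was compared with that of piglets on the control diet, with 11 seaweed libraries against 6 control libraries, which are all 17 libraries of the series. The animals were male Large White × Duroc piglets that were 28 days old at entry, and each library came from the longissimus muscle of 1 piglet (longissimus dorsi by its label, longissimus lumborum by the study's methods). Control piglets (n = 6) were given a diet of wheat, maize and soybean meal with no seaweed. In the UL diet (n = 6), 7% of that feed was replaced by the green seaweed Ulva lactuca. The ULU diet (n = 5) was the UL diet with 0.01% ulvan lyase, an enzyme that cuts ulvan, a sulphated polysaccharide of the seaweed's cell wall. All piglets were housed singly in metabolic cages, were pair-fed, and had 5 days of adaptation before the trial of 2 weeks. The seaweed group was formed by the diet labels and by no measured value, and it answers which RNA differences the feeds with Ulva lactuca shared.

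Depth lay between 16137365 and 26546810 counted reads per piglet. Values are given as CPM, counts of a gene scaled to a common library size by edgeR's TMM method, and 3 reads, taken as the smallest detectable signal, stood for 0.113 to 0.186 CPM before that scaling, a limit that covers counting error only. A low-count filter left 13955 of the 31908 annotated genes for testing. Skeletal muscle markers were abundant in every library: the summed level of 7 of them was 89068 to 142877 CPM in control and 114654 to 241527 CPM in seaweed piglets. Counted reads (two-sided exact permutation test, p = 0.197) and the number of genes with at least 1 read (p = 0.302, same exact test) did not pass 0.05 between the groups. Some libraries stood apart in single values. UL 27 and ULU 40 had 11 and 10 reads on the mitochondrial gene ATP8, or 0.566 and 0.436 CPM, against 911 to 1529 CPM in the other 15 libraries. Control 25 had the most counted reads of the controls, 23433672, and the least ATF3, and control 24 had the most COX1, a mitochondrial gene, and SCD, a fatty acid enzyme, of the controls. In bulk tissue fewer cells of a type and less RNA per cell cannot be told apart.

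Skeletal muscle fibres are either slow, with the myosin heavy chain MYH7 and slow troponins, or fast, with other myosins and fast troponins. Muscle is also a store of amino acids and responds to feeding. A shortage of amino acids and other stresses act through the transcription factor ATF4 and its partners, which is called the integrated stress response. Fasting and glucocorticoids act through FOXO factors and the glucocorticoid receptor, and the time of day acts through the clock genes.

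Tested over all 17 libraries, RNA of ATF3, CHAC1, DDIT4, PDK4 and PER1 was lower in the seaweed piglets than in control piglets, and RNA of TNNT1 and MYH7 was higher. With p-values adjusted by Benjamini-Hochberg, edgeR's quasi-likelihood test found 15 of 13955 genes (0.107%) differentially expressed (DEG: adjusted p under 0.05 and at least a 2-fold change), of which 4 were higher and 11 lower in the seaweed piglets. Below, a gene passed, or was higher or lower, by this edgeR test unless another tool is named. By the adjusted p alone, 104 genes passed (0.745%), 53 higher (0.380%) and 51 lower (0.365%). The smallest adjusted p was 0.0162. Over all 13955 genes, 2241 had an unadjusted p under 0.05 and 49.1% had a log2(fold change) above 0. DESeq2 was given the 25698 genes with any read, gave some of them no adjusted p, and called 480. With limma-voom 139 of 13955 passed, so both called more genes than edgeR. Counts in the gene lists below are to be read beside these totals, and no list was tested against them. The median absolute log2(fold change) of the 104 genes was 0.62, and 47 of them changed by less than 1.5-fold. In 3 of the 15 DEGs (PER1, NAV2 and HOXC5) no seaweed piglet overlapped any control piglet, and over all genes tested this held for 38 (0.272%).

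These calls depended on single libraries. Without control 22 only 3 genes passed the adjusted p and 0 were DEGs, and without control 23, 0 passed (edgeR; 1749 and 1881 genes had an unadjusted p under 0.05). Without control 24 the numbers were 30 genes and 7 DEGs, and without control 26 they were 32 and 3. Without control 25 they rose to 324 genes and 38 DEGs, with 14 of the 15 DEGs among them. Leaving out 1 seaweed library gave 44 to 134 genes and 7 to 20 DEGs, as the bars of calls by library left out show. The largest adjusted p of a DEG over these 17 fits was 0.1398 (PDK4, without control 22), and each of the 15 kept its direction in all of them. The adjusted p of ANPEP was under 0.05 in 3 and that of ARG2 in 4 of the 17 fits. It was under 0.05 in 7 fits for PER1 and PDK4, 8 for TNNT1 and IL1RAP and 10 for DDIT4 and ATP8A2, against 15 for ATF3, MAT2A and NR4A3. With limma-voom 11 of the 15 DEGs were kept. Without both UL 27 and ULU 40, 77 genes and 10 DEGs passed, and 7 of the 15 DEGs were still DEGs (ATF3, NR4A3, CHAC1, IL33, MAT2A, HOXC5 and NAV2). The other 8 kept their direction with adjusted p from 0.0556 to 0.0848, and 58 of the 104 genes passed again. Among the smaller changes, CRY2, XBP1, PSMA7, DNAJB4, IL6ST and IFIT5 still passed there, and GLUL, INSIG1, MYH7, NDUFB10, ISCU and MAP2K3 did not.

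**Figure D1:**
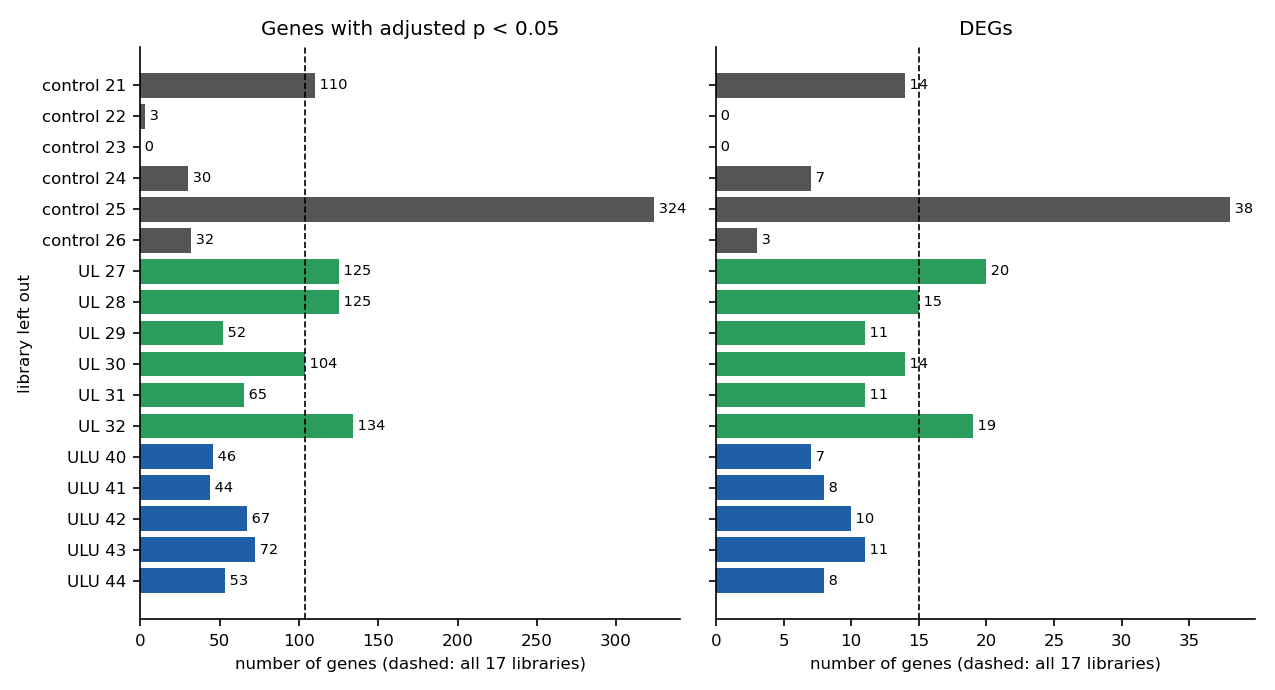
Number of genes past the adjusted p (left) and number of DEGs (right) on the x axes when the library on the y axis was left out; grey bars are control, green UL and blue ULU libraries, and the dashed lines mark the 104 genes and 15 DEGs of all 17 libraries. The shortest bars, 0 and 3 genes, belong to control 23 and control 22, and the longest, 324 genes, to control 25.

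Of the integrated stress response list, 28 genes were tested, 3 were lower and none higher in the seaweed piglets (DESeq2 called 3 of the list and limma-voom 2). All 3 were DEGs. ATF3 (ENSSSCG00000015595, chromosome 9, 130770428 to 130787462 of the assembly Sscrofa11.1), a transcription factor induced by many stresses, changed the most of all DEGs. Its lowest, median and highest levels were 19.3, 119.6 and 227 CPM in control and 4.24, 12.9 and 62.8 CPM in seaweed piglets. The 5 control piglets other than control 25 had at least 59.0 CPM, and UL 27, with 62.8 CPM, was the seaweed piglet that reached this level. Its log2(fold change) was -2.62 ± 0.49 (SE, adjusted p = 0.0194), and it was -2.17 ± 0.54 in UL and -3.46 ± 0.62 in ULU. CHAC1 (ENSSSCG00000038521, chromosome 1, 130360513 to 130363308), an enzyme that degrades glutathione and a target of ATF4, ran from 20.2 to 123 CPM in control, with a median of 24.02 CPM. In seaweed piglets it ran from 3.598 to 22.8 CPM with a median of 8.21 CPM. Control 23 and control 26, with 123 and 90.6 CPM, stood well above the other 4 controls, and 9 of the 11 seaweed piglets lay below every control. Its log2(fold change) was -2.24 ± 0.44 (SE, adjusted p = 0.02603). DDIT4 (ENSSSCG00000031888, chromosome 14, 75117707 to 75119903), an inhibitor of the growth kinase mTORC1, had a lowest, median and highest level of 63.1, 146 and 286 CPM in control and of 45.3, 82.7 and 125 CPM in seaweed piglets. Control 24, with 63.1 CPM, lay within the seaweed range and the other 5 controls lay above it. DDIT4 differed by -1.05 ± 0.23 (SE, adjusted p = 0.0377) on the log2 scale, and did not pass with limma-voom (adjusted p = 0.0579).

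Across the 28 tested genes of this list, 26 had a log2(fold change) below 0, and the median was -0.37, against -0.0063 over all 13955 genes. The 2 members above 0 were VLDLR (0.11 ± 0.12, SE) and the kinase gene EIF2AK4 (0.036 ± 0.12). ATF4 itself differed by -0.051 ± 0.17 and ASNS, its classical amino acid response target, by -0.21 ± 0.24; neither passed (adjusted p = 0.913 and 0.713). FGF21, a hormone that ATF4 induces, had a control mean of 9.598 ± 8.47 CPM (SD, n = 6) and a seaweed mean of 3.63 ± 5.68 CPM (SD, n = 11), with a log2(fold change) of -1.41 ± 0.64 and an adjusted p of 0.287. These 5 genes were chosen after their values were seen. Of the 21 tested genes of the unfolded protein response, XBP1 was lower and the others did not pass with edgeR (DESeq2 called 2 of the list and limma-voom 1). XBP1 encodes the factor that is spliced when unfolded protein builds up in the endoplasmic reticulum, and its levels were 59.01, 86.7 and 125 CPM in control (lowest, median, highest) and 43.9, 52.6 and 61.6 CPM in seaweed piglets. The log2(fold change) of XBP1 was -0.72 ± 0.12 (SE, adjusted p = 0.0162), and was close in both diets, -0.71 ± 0.15 in UL and -0.72 ± 0.16 in ULU. The median of that list was -0.11, with 7 of 21 genes above 0.

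Both genes that passed among the 19 tested methionine, arginine and polyamine enzymes were DEGs, and both were lower (DESeq2 called 3 of the list and limma-voom 3). MAT2A (ENSSSCG00000022300, chromosome 3, 59211157 to 59225261) makes S-adenosylmethionine, the methyl donor of the cell, from methionine. It had a lowest, median and highest level of 132, 154 and 265 CPM in control and 51.6, 70.9 and 145 CPM in seaweed piglets. ULU 40, with 145 CPM, lay within the control range, and the other 10 seaweed piglets lay below it. MAT2A had a log2(fold change) of -1.12 ± 0.20 (SE, adjusted p = 0.0162), and the 2 diets were close, with -1.08 ± 0.24 in UL and -1.17 ± 0.25 in ULU. ARG2 (ENSSSCG00000002294, chromosome 7, 91343987 to 91385911), the mitochondrial arginase, had 32.3, 57.2 and 145 CPM in control (lowest, median, highest) and 5.67, 20.1 and 43.4 CPM in seaweed piglets. The lowest control overlapped 3 seaweed piglets (UL 31, UL 32 and ULU 44), and control 26 was the highest library. ARG2 differed by -1.75 ± 0.40 (SE, adjusted p = 0.0473) on the log2 scale, and did not pass with edgeR's robust dispersions. Exons of MAT2A and ARG2 overlap exons of GGCX and VTI1B on the opposite strand, and reads on such shared bases were counted for neither gene. The list as a whole did not lean to one side, with 11 of 19 genes above 0 and a median of 0.039. The 14 tested amino acid transporters had 0 genes past the adjusted p with edgeR, DESeq2 or limma-voom and 3 with an unadjusted p under 0.05; 5 were above 0 and the median was -0.18. The most abundant by CPM, SLC7A2, had a control mean of 207 ± 28.8 CPM (SD, n = 6) and a seaweed mean of 193 ± 58.5 CPM (SD, n = 11).

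NR4A3 (ENSSSCG00000005385, chromosome 1, 241569905 to 241611734), a nuclear receptor that is rapidly induced by exercise and adrenergic signals, was the 1 gene of 25 tested immediate early genes that passed with edgeR (DESeq2 called 2 of the list and limma-voom 1). Its levels were low, with a lowest, median and highest of 1.94, 9.18 and 15.3 CPM in control and 0.347, 1.396 and 2.94 CPM in seaweed piglets. Control 25 and control 26, at 1.94 and 1.96 CPM, lay within the seaweed range, and the other 4 controls lay above every seaweed piglet. The log2(fold change) was -2.51 ± 0.44 (SE, adjusted p = 0.0162), with -2.46 ± 0.55 in UL and -2.58 ± 0.60 in ULU. Its relative NR4A1 differed by 0.29 ± 0.20, NR4A2 by -0.094 ± 0.22 and FOS by 0.082 ± 0.50, and none of these 3, named after their values were seen, passed (adjusted p = 0.497, 0.8701 and 0.959). Over the list, 8 of 25 genes were above 0 and the median was -0.13, with 0.036 in UL and -0.40 in ULU.

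Among 23 tested clock genes, PER1 and CRY2 were lower and none was higher with edgeR (DESeq2 called 3 of the list and limma-voom 2). Both belong to the repressor arm of the clock, which feeds back on the activators ARNTL and CLOCK. PER1 (ENSSSCG00000017983, chromosome 12, 53361868 to 53376611) had 27.3, 31.1 and 60.5 CPM in control (lowest, median, highest) and 4.24, 17.7 and 23.4 CPM in seaweed piglets. All 11 seaweed piglets lay below all 6 controls, and control 25, at 60.5 CPM, was the highest. For PER1 the log2(fold change) was -1.17 ± 0.26 (SE, adjusted p = 0.0391). CRY2 changed by less, -0.48 ± 0.10 (SE, adjusted p = 0.0324), from 30.8, 32.7 and 42.7 CPM in control to 19.2, 23.7 and 28.7 CPM in seaweed piglets, again without overlap. Other repressors had values on the same side without passing with edgeR, PER2 at -0.91 ± 0.30, PER3 at -0.60 ± 0.31, NR1D2 at -0.49 ± 0.17 and CIART at -0.60 ± 0.18 (adjusted p from 0.118 to 0.356). Of these, CIART passed with DESeq2 (adjusted p = 0.0479) and not with limma-voom (adjusted p = 0.154). On the activator side ARNTL was at 1.06 ± 0.38, CLOCK at 0.30 ± 0.12 and NPAS2 at 0.59 ± 0.29 (adjusted p = 0.174, 0.225 and 0.321). These 7 genes were named after their values were seen. The median of the clock list was -0.013 with 11 of 23 genes above 0. The time of day of slaughter and of the last meal per piglet was not given in the sources used here, and its part in these values was not tested.

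Of 21 tested glucocorticoid- and FOXO-responsive genes, PDK4, PER1 and GLUL were lower and none was higher with edgeR (DESeq2 called 5 of the list and limma-voom 2). PDK4 (ENSSSCG00000015334, chromosome 9, 75246002 to 75260134) blocks the entry of pyruvate into the citric acid cycle and rises in fasting. It had a lowest, median and highest level of 5.09, 12.1 and 38.9 CPM in control and 3.42, 6.30 and 10.9 CPM in seaweed piglets. The spread among controls was wide: control 21, at 5.09 CPM, lay among the seaweed piglets, control 24, at 8.57 CPM, did too, and control 22 was the highest. PDK4 differed by -1.43 ± 0.31 (SE, adjusted p = 0.0377) on the log2 scale, and did not pass with limma-voom (adjusted p = 0.0817). GLUL (ENSSSCG00000015545, chromosome 9, 123751548 to 123762547), glutamine synthetase, had 159.8, 258 and 336 CPM in control (lowest, median, highest) and 86.5, 142 and 194 CPM in seaweed piglets, with a log2(fold change) of -0.79 ± 0.17 (SE, adjusted p = 0.0377). In 4 of the 6 controls GLUL lay above every seaweed piglet. Over the list 16 of 21 genes were below 0 and the median was -0.40, beside -0.0063 over all genes. The muscle ubiquitin ligase genes TRIM63 and FBXO32, which drive protein breakdown in wasting, differed by -0.30 ± 0.18 and -0.24 ± 0.36 (adjusted p = 0.426 and 0.782), and MSTN, which encodes the growth inhibitor myostatin, by 0.20 ± 0.26 (adjusted p = 0.746). The glucocorticoid receptor targets ZBTB16 and FKBP5 were at -0.73 ± 0.19 and -0.62 ± 0.28 (adjusted p = 0.0712 and 0.277). ZBTB16 passed with DESeq2 (adjusted p = 0.0156) and not with limma-voom (adjusted p = 0.0940), and FKBP5 was at -0.20 without control 25, its highest control. These 5 genes were also named after their values were seen.

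**Figure D2:**
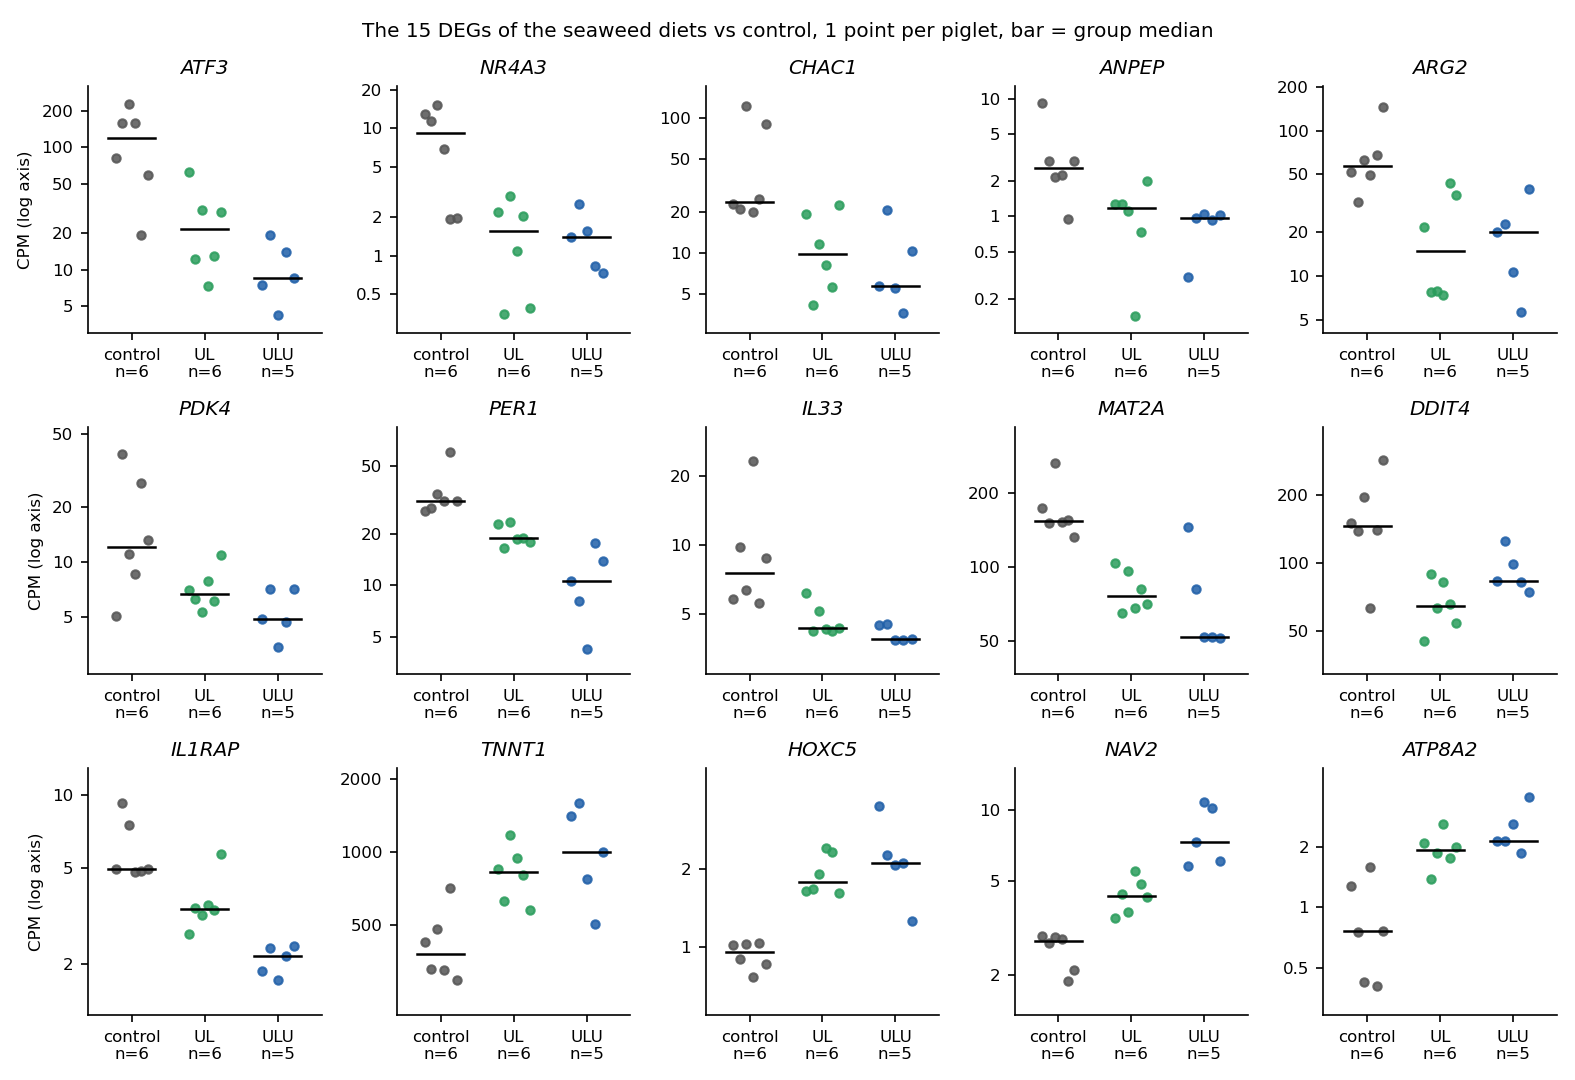
Each panel shows 1 of the 15 DEGs with CPM on a log y axis and the 3 diets on the x axis; a point is 1 piglet and the bar is the median of its diet. PER1, NAV2 and HOXC5 have no overlap between control and seaweed piglets, while NR4A3 and PDK4 have controls (1.94 and 5.09 CPM) within the seaweed range.

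The slow fibre genes TNNT1 and MYH7 were higher in the seaweed piglets, and each of the 12 tested genes had a log2(fold change) above 0 (median 0.62, range 0.20 to 1.12). TNNT1 (ENSSSCG00000025353, chromosome 6, 59347582 to 59365589), the slow troponin T, was a DEG. Its lowest, median and highest levels were 298, 379 and 712 CPM in control and 505, 849 and 1586 CPM in seaweed piglets. Of the controls, control 25, at 712 CPM, lay within the seaweed range, and the other 5 lay below every seaweed piglet. The log2(fold change) was 1.12 ± 0.24 (SE, adjusted p = 0.0377). The gene printed here as MYH7 (ENSSSCG00000002029, chromosome 7, 75650445 to 75709232) spans the neighbouring heart and slow myosin genes MYH6 and MYH7, whose reads cannot be told apart in these counts. It ran from 653 to 1187 CPM in control and from 1059 to 2738 CPM in seaweed piglets, where 8 of 11 lay above every control. Its log2(fold change) was 0.94 ± 0.22 (SE, adjusted p = 0.0491). Other slow genes of the list did not pass with edgeR (DESeq2 called 3 of the list and limma-voom 2), among them TNNI1 at 0.76 ± 0.21, MYL2 at 0.65 ± 0.23 and TNNC1 at 0.61 ± 0.20, named after their values were seen (adjusted p = 0.0785, 0.172 and 0.153). TNNI1 passed with DESeq2 (adjusted p = 0.00974) and not with limma-voom (adjusted p = 0.0636).

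Fast fibre genes leaned the same way with smaller values. All 13 tested had a log2(fold change) above 0 (median 0.39, range 0.057 to 0.54), 0 passed the edgeR adjusted p, 7 had an unadjusted p under 0.05, 5 passed with DESeq2 and 1 with limma-voom. The most abundant by CPM, MYL1, a fast myosin light chain, had a control mean of 40591 ± 8775 CPM (SD, n = 6) and a seaweed mean of 45300.1 ± 9661 CPM (SD, n = 11) (adjusted p = 0.675). Summed over each list, slow genes were at 4518 to 9336 CPM in control and 7004 to 16310.4 CPM in seaweed piglets, and fast genes at 98198 to 168063 CPM and 124803 to 210082 CPM. Skeletal muscle markers lay on the same side: all 7 tested were above 0, with a median of 0.42, and MYH7 was the member that passed (DESeq2 called 2 of the list and limma-voom 2). The marker named MYH2 spans the myosin genes MYH1, MYH2 and MYH4, whose reads cannot be told apart in these counts. Fibroblast markers lay on the other side, and 0 passed with edgeR, DESeq2 or limma-voom. They had a median of -0.40 with 1 of 8 above 0 (summed level 2674 to 5779.8 CPM in control, 2266 to 6571 CPM in seaweed piglets), and 3 had an unadjusted p under 0.05. Whether a different share of fibres in the sample had a part in the values of the fibre genes was not tested.

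Reads on the mitochondrial chromosome took a smaller share of the libraries in the seaweed piglets. All its genes together held 14.77% ± 0.697 (SD, n = 6) of counted reads in control and 10.99% ± 1.91 (SD, n = 11) in seaweed piglets (two-sided exact permutation test, p = 8.08e-04). In this whole share the groups overlapped: UL 32, at 14.76%, lay within the control range of 14.05% to 15.88%. The 13 protein-coding genes of this chromosome, which encode subunits of the respiratory chain, held 11.7% ± 0.955 (SD, n = 6) of counted reads in control and 8.47% ± 1.07 (SD, n = 11) in seaweed piglets. In the protein-coding share the groups did not overlap, by a narrow margin: the lowest control had 10.2% and the highest seaweed piglet, UL 32, 10.05% (two-sided exact permutation test, p = 8.08e-05, the smallest that the 12376 splits allow). UL piglets had a share of 8.502% ± 1.07 (SD, n = 6), and the share of ULU piglets was 8.43% ± 1.204 (SD, n = 5). Without UL 27 and ULU 40, the libraries with almost no ATP8 reads, the seaweed mean was 8.82% ± 0.8202 (SD, n = 9; exact p = 2.00e-04). The 2 mitochondrial ribosomal RNA genes did not pass, at 3.11% ± 0.6098 (SD, n = 6) and 2.51% ± 1.05 (SD, n = 11; exact p = 0.221). The mean of this share in UL was 3.12% ± 1.05 (SD, n = 6). ULU piglets had 1.78% ± 0.3896 (SD, n = 5), where every piglet lay below every control, and the diets were not tested separately. The share of the 10 most abundant genes of a library was 28.2% ± 1.49 (SD, n = 6) in control and 30.5% ± 2.21 (SD, n = 11; exact p = 0.0398). Adjusted over the 9 library measures tested, the exact p was 7.27e-04 for the protein-coding share and 0.0716 for the 10 most abundant genes. The absence of overlap rested on COX1, which took 2.79% of the counted reads of control 24 and 1.23% of control 25 against at most 0.652% in the other 15 libraries. Without COX1 the shares were 10.6% ± 1.07 (SD, n = 6) and 8.04% ± 1.06 (SD, n = 11; exact p = 3.23e-04), with control values from 9.11% and seaweed values up to 9.57%.

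**Figure D3:**
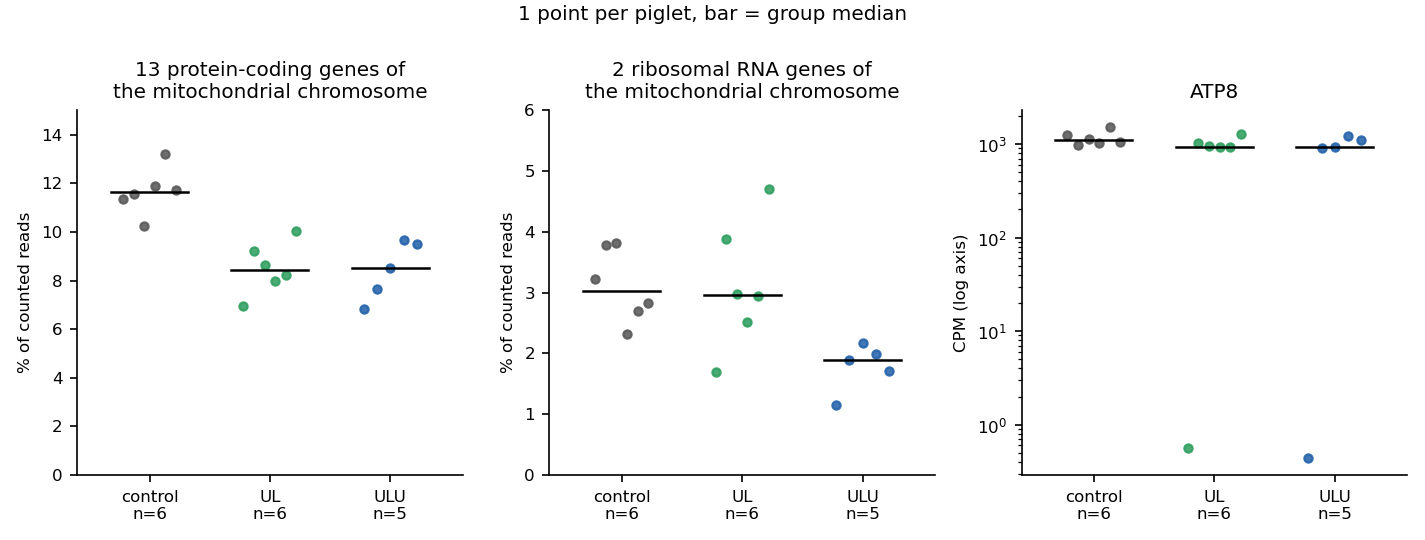
The y axes give the share of counted reads on the 13 protein-coding genes (left) and the 2 ribosomal RNA genes (middle) of the mitochondrial chromosome in percent, and the level of ATP8 in CPM on a log axis (right); points are piglets and bars are medians of each diet. The protein-coding share lies above 10.2% in all controls and at or below 10.05% in all seaweed piglets, and 2 seaweed piglets (UL 27 and ULU 40) have under 1 CPM of ATP8.

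Gene by gene, no mitochondrial gene passed: 0 of 13 did with edgeR, DESeq2 or limma-voom, 4 had an unadjusted p under 0.05, and all 13 had a log2(fold change) below 0 (median -0.32, and -0.21 without UL 27 and ULU 40). COX3, the most abundant of them by CPM and a subunit of complex IV, had a control mean of 17082 ± 3287 CPM (SD, n = 6) and a seaweed mean of 13794 ± 2919.5 CPM (SD, n = 11) (adjusted p = 0.333). COX1, named after its values were seen, had the lowest log2(fold change), -1.12 ± 0.33 (adjusted p = 0.102), and -0.53 without control 24. Respiratory chain subunits encoded in the nucleus lay on the other side, with 36 of 37 above 0, a median of 0.16, and 1 gene past the edgeR adjusted p (DESeq2 called 4 of the list and limma-voom 2). That gene, NDUFB10 (ENSSSCG00000030328, chromosome 3, 40003109 to 40005589), a subunit of complex I, had 97.4, 115 and 177 CPM in control (lowest, median, highest) and 141, 167 and 204 CPM in seaweed piglets, with a log2(fold change) of 0.51 ± 0.12 (SE, adjusted p = 0.0464). Control 25, at 177 CPM, lay within the seaweed range and the other 5 controls lay below every seaweed piglet. Among 19 tested iron genes ISCU, the scaffold on which iron-sulphur clusters are built, was higher, at 0.46 ± 0.11 (SE, adjusted p = 0.0491), and the list had 11 genes above 0 and a median of 0.03 (DESeq2 called 3 of the list and limma-voom 2).

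Enzymes of energy metabolism had list medians slightly above 0. Of 26 tested genes of the citric acid cycle and of pyruvate and branched-chain amino acid oxidation, 23 were above 0 (median 0.23), 0 passed with edgeR, 10 had an unadjusted p under 0.05, and 2 passed with DESeq2 and 1 with limma-voom. Glycolysis and glycogen genes had 20 of 22 above 0 and a median of 0.28, with 0 past the adjusted p in any of these 3 tests and 8 with an unadjusted p under 0.05. The medians of these lists in the separate diets were 0.059 in UL and 0.35 in ULU for the citric acid cycle and 0.086 and 0.45 for glycolysis. The most abundant members by CPM were SUCLA2, a subunit of succinyl-CoA synthetase, at 0.083 ± 0.13, and LDHA, lactate dehydrogenase A, at 0.12 ± 0.19 (adjusted p = 0.7902 and 0.802). Their values differed in sign between the diets, SUCLA2 at -0.069 ± 0.13 in UL and 0.25 ± 0.13 in ULU and LDHA at -0.14 ± 0.18 and 0.38 ± 0.19, with ULU minus UL of 0.52 (95% interval 0.13 to 0.92) for LDHA. Cytosolic ribosomal protein genes had 43 of 45 above 0 with a median of 0.17, and 0 passed with edgeR, against 10 with an unadjusted p under 0.05, 2 with DESeq2 and 0 with limma-voom. RPLP1, the most abundant of them by CPM, differed by 0.11 ± 0.18 (adjusted p = 0.820). In that list UL had the higher median, 0.29, and ULU 0.041.

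A ligand and receptor of the interleukin 1 family were both DEGs with less RNA in the seaweed piglets. IL33 (ENSSSCG00000005203, chromosome 1, 215899435 to 215941840) encodes an alarm cytokine that is held in the nucleus of stromal cells until they are damaged. It had 5.59, 7.58 and 23.2 CPM in control (lowest, median, highest) and 3.84, 4.32 and 6.17 CPM in seaweed piglets, and control 24 held the highest value. UL 27, with 6.17 CPM, was the seaweed piglet within the control range. The log2(fold change) of IL33 was -1.15 ± 0.24 (SE, adjusted p = 0.0289), and -0.71 without control 24 (adjusted p = 0.0603). IL1RAP (ENSSSCG00000021206, chromosome 13, 127933682 to 128072348), the receptor subunit shared by interleukin 1 and interleukin 33 signalling, had 4.802, 4.95 and 9.202 CPM in control and 1.73, 2.68 and 5.72 CPM in seaweed piglets. UL 32, at 5.72 CPM, reached the controls and the other 10 seaweed piglets lay below all of them. Its log2(fold change) was -1.04 ± 0.22 (SE, adjusted p = 0.0364). IL6ST, the signalling receptor subunit of the interleukin 6 family, was the 1 gene of 22 tested growth hormone, cytokine and insulin signalling genes that passed with edgeR, at -0.46 ± 0.088 (SE, adjusted p = 0.0243), while DESeq2 called 4 of the list and limma-voom 1. CISH, a feedback inhibitor of growth hormone signalling named after its value was seen, had the highest log2(fold change) of that list, 2.98 ± 0.95. It did not pass with edgeR (adjusted p = 0.1299) or limma-voom (adjusted p = 0.527), while it did with DESeq2 (adjusted p = 0.0226).

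In the interferon response list 20 of 21 tested genes were below 0, with a median of -0.50, and 1 passed with edgeR (DESeq2 called 3 of the list and limma-voom 1). IFIT5, which binds viral RNA, had 34.4, 41.8 and 52.5 CPM in control (lowest, median, highest) and 20.2, 26.9 and 40.4 CPM in seaweed piglets, where 10 of 11 lay below every control, and a log2(fold change) of -0.62 ± 0.13 (SE, adjusted p = 0.0289). ISG15 and CXCL10, chosen after their values were seen, had larger differences that did not pass with edgeR, -2.27 ± 0.54 and -1.56 ± 0.43 (adjusted p = 0.05001 and 0.0889). Both passed with DESeq2 (adjusted p = 0.0109 and 0.0437) and not with limma-voom (adjusted p = 0.261 and 0.245). ISG15 went from 8.34, 13.97 and 207 CPM in control (lowest, median, highest) to 5.63, 8.27 and 22.2 CPM. The highest ISG15 level was that of control 21 alone, with 8.34 to 27.7 CPM in the other 5 controls, and without it the value was -0.60. Leukocyte markers lay below 0 as well and none passed with any of the 3 tools: 0 of 9 macrophage markers were above 0 (median -0.36, 1 with an unadjusted p under 0.05) and 1 of 8 lymphocyte markers (median -0.47, 2 with an unadjusted p under 0.05). Their summed levels were 134 to 296 CPM and 15.7 to 69.7 CPM in control and 69.6 to 311 CPM and 11.04 to 49.5 CPM in seaweed piglets, so the groups overlapped. C1QC and PTPRC, the most abundant of each by CPM, differed by -0.44 ± 0.21 and -0.75 ± 0.34 (adjusted p = 0.308 and 0.2899). Whether fewer leukocytes or stromal cells had a part in the lower IL33, IL1RAP and IFIT5 was not tested. ANPEP (ENSSSCG00000001849, chromosome 7, 55351083 to 55373881), a membrane peptidase of myeloid and other cells, was a DEG at low level, with 0.947, 2.601 and 9.23 CPM in control (lowest, median, highest) and 0.142, 1.02 and 2.01 CPM in seaweed piglets, and a log2(fold change) of -1.79 ± 0.42 (SE, adjusted p = 0.0477). Control 25, at 0.947 CPM, lay within the seaweed range, and control 21, at 9.23 CPM, stood above the other controls. Without control 21 ANPEP was at -1.20 (adjusted p = 0.132), and with limma-voom its adjusted p was 0.08296.

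The other 3 DEGs with more RNA in the seaweed piglets are in none of the lists. NAV2 (ENSSSCG00000013351, chromosome 2, 39266913 to 40077925), a large cytoskeletal protein first studied in growing neurons, had 1.89, 2.79 and 2.93 CPM in control (lowest, median, highest) and 3.499, 5.504 and 10.8 CPM in seaweed piglets, with no overlap. Its log2(fold change) was 1.24 ± 0.25 (SE, adjusted p = 0.02603). ATP8A2 (ENSSSCG00000035421, chromosome 11, 3278071 to 3793881), a flippase that moves phospholipids across membranes, had 0.406, 0.7601 and 1.58 CPM in control and 1.39, 2.11 and 3.55 CPM in seaweed piglets, of which 10 of 11 lay above every control. Its log2(fold change) was 1.34 ± 0.29 (SE, adjusted p = 0.0364), and it did not pass when no low-count filter was applied. HOXC5 (ENSSSCG00000040798, chromosome 5, 19245851 to 19248172), a homeobox gene of the HOXC cluster, had 0.764, 0.958 and 1.04 CPM in control and 1.26, 2.08 and 3.53 CPM in seaweed piglets, without overlap, and a log2(fold change) of 1.15 ± 0.22 (SE, adjusted p = 0.0225). All 3 are at low level, where 7 to 249 reads per library were counted.

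HOX genes keep the level along the body axis at which a tissue formed, so the rest of the family was looked at after HOXC5 had been seen. Of 6 HOXC genes tested, 6 had a log2(fold change) above 0, with a median of 0.59. HOXC10 passed as well, at 0.70 ± 0.16 (SE, adjusted p = 0.0477), and HOXC4, HOXC6, HOXC8 and HOXC9 were at 0.93 ± 0.37, 0.36 ± 0.18, 0.47 ± 0.16 and 0.35 ± 0.15 (adjusted p from 0.1502 to 0.335). The 6 tested HOXA genes were all above 0 too (median 0.34), with 0 past the adjusted p and 3 with an unadjusted p under 0.05, while the HOXB (2 tested, median -0.07) and HOXD genes (5 tested, median 0.16) had values on both sides. The position along the muscle at which each sample was taken was not given in the sources used here, and its part in these values was not tested.

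Genes of protein turnover and lipid synthesis were also named by list. PSMA7, a subunit of the proteasome core, had 65.8, 74.7 and 98.2 CPM in control (lowest, median, highest) and 101, 111 and 144 CPM in seaweed piglets, with no overlap, and a log2(fold change) of 0.54 ± 0.10 (SE, adjusted p = 0.0162). It was the 1 gene of 32 tested proteasome subunits that passed with edgeR (DESeq2 called 1 of the list and limma-voom 1), with 24 above 0 and a median of 0.089. DNAJB4, a co-chaperone of HSP70, was lower, at -0.53 ± 0.10 (SE, adjusted p = 0.0194), with 387, 475 and 579.8 CPM in control and 267, 339.9 and 368 CPM in seaweed piglets and again no overlap. The other 19 tested heat shock genes did not pass with edgeR (DESeq2 called 2 of the list and limma-voom 1), and the median of that list was 0.12, which became -0.043 without UL 27 and ULU 40. INSIG1, which holds the sterol sensor SCAP in the endoplasmic reticulum, was higher, at 0.86 ± 0.20 (SE, adjusted p = 0.0491), with 10.8, 12.3 and 19.5 CPM in control and 16.4, 21.7 and 38.6 CPM in seaweed piglets. Of 24 tested fatty acid and cholesterol synthesis genes it was the 1 that passed with edgeR (DESeq2 called 2 of the list and limma-voom 1), and the list had 11 above 0 and a median of -0.019. Control 24 had the highest summed level of this list, 1382 CPM, and SCD, an enzyme that desaturates fatty acids and was named after its values were seen, was at 375 CPM there and at 14.01 to 55.1 CPM in the other 5 controls. Without control 24 SCD differed by -0.053, against -1.34 ± 0.60 with it (adjusted p = 0.277). Adipocyte markers lay below 0 by their median (-0.69, range -1.41 to 0.60), with 3 of 8 above 0. Of these markers 0 passed the adjusted p with any tool and 3 had an unadjusted p under 0.05. Among those below 0 were ADIPOQ at -1.41 ± 0.63 and FABP4 at -0.86 ± 0.35, also named after their values were seen. Control 24 was again the highest control for both, at 238 and 311 CPM, and without it they were at -0.49 and -0.30. The summed level of the adipocyte markers, of which GPD1 made up most, was not lower in the pooled seaweed piglets. Its median was 1261 CPM in control and 1531 CPM in seaweed piglets, with GPD1 at 0.27 ± 0.16. The diets did not share this: the median was 1143 CPM in UL, below that of control, and 1701 CPM in ULU. GPD1 was at 0.0070 ± 0.15 in UL and 0.53 ± 0.15 in ULU. In ULU minus UL it was at 0.52 ± 0.15 and did not pass (adjusted p = 0.243).

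In 11 more lists no gene passed the edgeR adjusted p. Their counts stand beside 2241 of all 13955 genes with an unadjusted p under 0.05 and 49.1% above 0. DESeq2 called 1 gene of PPAR and lipid handling and 2 of the myogenic factors and 0 in the other 9, and limma-voom called 0 in all 11. PPAR and lipid handling had 19 of 28 above 0, median 0.16, with 8 genes at an unadjusted p under 0.05, and the myogenic factors had 15 of 21 above 0, median 0.20, with 6. Antioxidant genes had 14 of 24 above 0, median 0.058, with 3, and osmotic response genes had 6 of 17 above 0, median -0.094, with 5. Collagens and matrix genes had 7 of 29 above 0, median -0.15, with 7 genes at an unadjusted p under 0.05, and cell cycle genes had 7 of 26 above 0, median -0.11, with 1. Among the cell markers, the endothelial list had 4 of 11 above 0, median -0.024, the smooth muscle and pericyte list 1 of 8 above 0, median -0.24, the Schwann cell list 3 of 5 above 0, median 0.11 and the satellite cell list 3 of 6 above 0, median -0.052, with 1, 1, 1 and 2 genes at an unadjusted p under 0.05. Red blood cell markers had 3 of 3 above 0, median 0.44, and 0 reached an unadjusted p under 0.05. The most abundant member of each of these 11 lists by CPM (CD36, SOD2, ATP1B1, MEF2C, COL3A1, CDKN1A, PECAM1, RGS5, PMP22, CDH15 and HBB) had a log2(fold change) between -0.26 (COL3A1) and 0.44 (HBB), with adjusted p from 0.236 to 0.969. Thyroid hormone genes had 10 of 17 above 0, median 0.11, with -0.13 in UL and 0.30 in ULU (DESeq2 called 2 of the list and limma-voom 1), and MYH7, which thyroid hormone represses, was the member that passed with edgeR. In 7 of the 37 lists the medians of UL and ULU lay on different sides of 0. Beside immediate early and thyroid hormone genes, these were growth hormone and cytokine signalling (0.094 in UL and -0.09 in ULU), fatty acid and cholesterol synthesis (-0.13 in UL and 0.082 in ULU), iron (-0.011 in UL and 0.066 in ULU), endothelial markers (0.10 in UL and -0.24 in ULU) and satellite cell markers (-0.032 in UL and 0.0097 in ULU).

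**Figure D4:**
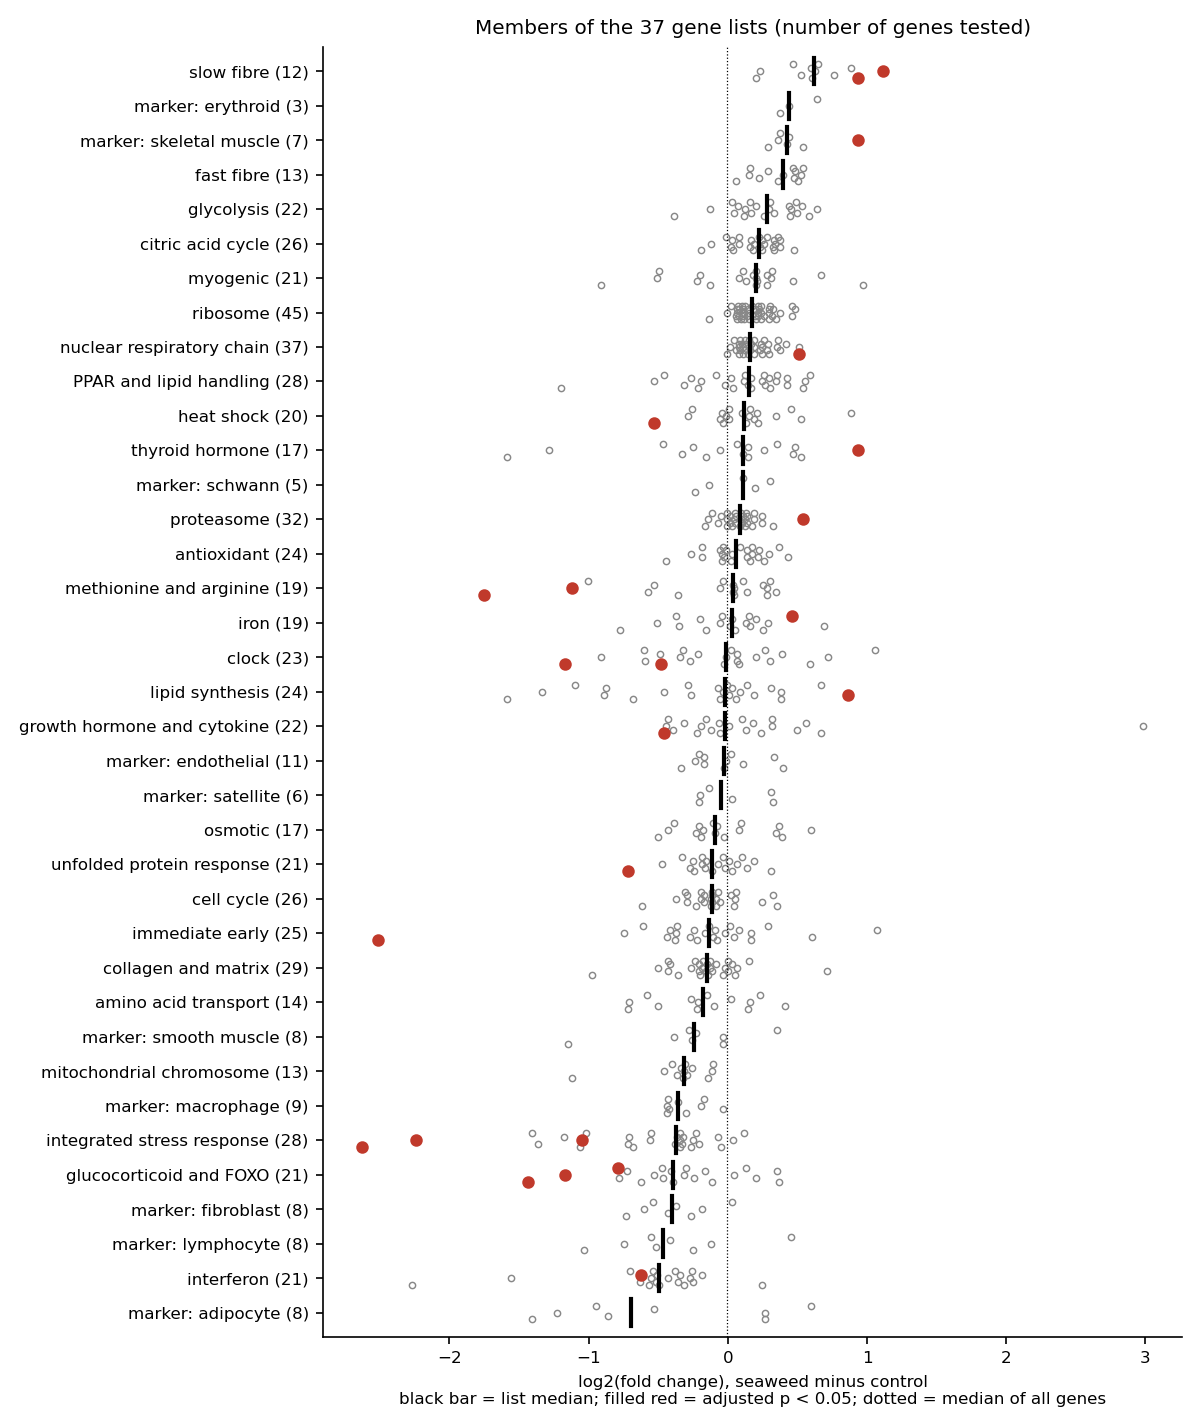
The x axis gives the log2(fold change) of seaweed against control piglets, and each row of the y axis is 1 of the 37 lists with the number of genes tested; open circles are genes, filled red circles are genes with an adjusted p under 0.05, black bars are list medians and the dotted line is the median of all 13955 genes (-0.0063). The slow fibre list lies farthest to the right (median 0.62) and the adipocyte markers farthest to the left (-0.69).

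Both diets had the direction of the pooled difference, with an unadjusted p under 0.05 in each, in all 104 genes past the adjusted p. The contrasts share the 6 control piglets and the pooled test used the same libraries, so this count describes the genes and is no separate evidence. The diets did not contribute equally to the calls. Against control, 0 of 13955 genes passed the edgeR adjusted p in UL alone (smallest adjusted p = 0.0932, 1534 genes with an unadjusted p under 0.05), and 423 passed in ULU alone, 91 of the 104 pooled genes among them. In 85 of the 104 genes ULU lay farther from control than UL did. The share over all genes was not counted, so this is not shown to be a trait of the 104. Over all 13955 genes, 2676 had an unadjusted p under 0.05 in ULU, against the 1534 in UL.

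The difference between the diets was tested directly. In ULU minus UL, 0 of the 104 genes passed the edgeR adjusted p, 19 had an unadjusted p under 0.05 and 18 of these lay farther from control in ULU, while over all 13955 genes 5 passed and 1529 had an unadjusted p under 0.05. The pooled test counts a difference between the diets as spread within the seaweed group, so it favours genes in which the diets are alike. With so few passing over all genes as well, 0 of 104 is no sign that the diets agree. The smallest p-values of ULU minus UL among the 104 genes belonged to NAV2, MAP2K3 and IL1RAP. NAV2 was 0.77 ± 0.19 (SE) in UL and 1.65 ± 0.20 in ULU against control, a difference of 0.88 (95% interval 0.47 to 1.29). Every ULU piglet had more NAV2 than every UL piglet. MAP2K3, a kinase that activates p38, was higher in both diets (pooled 0.56 ± 0.12 (SE, adjusted p = 0.0391)), at 0.34 ± 0.10 in UL and 0.78 ± 0.11 in ULU, with a difference of 0.44 (95% interval 0.22 to 0.66). IL1RAP was -0.73 ± 0.21 in UL and -1.53 ± 0.23 in ULU, and the difference was -0.79 (95% interval -1.27 to -0.32). PER1 was at -0.84 ± 0.25 and -1.70 ± 0.28, a difference of -0.86 (95% interval -1.42 to -0.29), and ATF3 differed by -1.29 (95% interval -2.49 to -0.088).

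For the other DEGs the interval of ULU minus UL included 0, and its width says how far the diets could still differ. It was -0.085 (95% interval -0.60 to 0.43) for MAT2A, 0.47 (95% interval -0.077 to 1.02) for DDIT4 and 0.34 (95% interval -0.22 to 0.91) for TNNT1. DDIT4 was the DEG that lay farther from control in UL (-1.28 ± 0.25) than in ULU (-0.81 ± 0.27). The intervals were wider for CHAC1, -0.39 (95% interval -1.59 to 0.80), ARG2, -0.068 (95% interval -1.15 to 1.02), NR4A3, -0.13 (95% interval -1.36 to 1.11), and ANPEP, -0.35 (95% interval -1.50 to 0.81). HOXC5 had 0.22 (95% interval -0.29 to 0.72), IL33 -0.20 (95% interval -0.83 to 0.42), ATP8A2 0.33 (95% interval -0.32 to 0.97) and PDK4 -0.42 (95% interval -1.24 to 0.41). A difference of 2-fold between the diets lay within the intervals of CHAC1, ARG2, NR4A3, ANPEP, PDK4 and, just, DDIT4, and outside those of MAT2A, TNNT1, HOXC5, IL33 and ATP8A2.

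**Figure D5:**
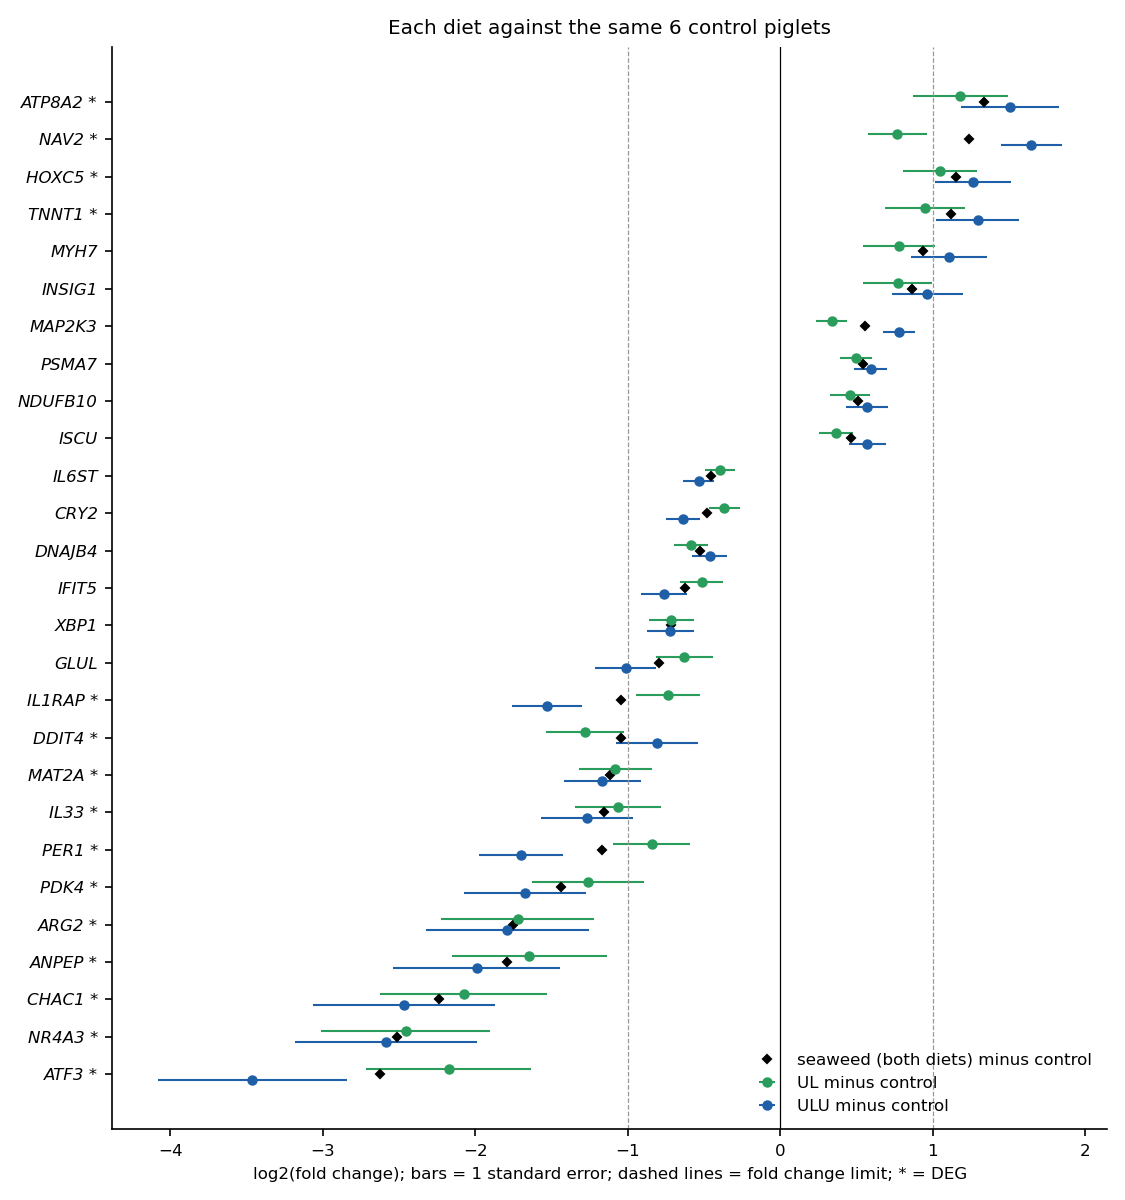
The x axis gives the log2(fold change) against control and the y axis the 27 genes past the adjusted p that the text describes in full; green points are UL and blue points ULU with bars of 1 standard error, black diamonds are both diets together and asterisks mark DEGs. Points of both diets lie on the same side of 0 in each row, and NAV2 lies at 0.77 in UL and 1.65 in ULU.

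No overlap between control and seaweed piglets was found for 38 genes of all tested (0.272%), and 24 of these were among the 104 that passed, 14 higher and 10 lower. The rule that chose these genes used the same libraries as the test, so the count is a description. Besides those already described, MAMSTR, a coactivator of the muscle factor MEF2, was higher at 0.82 ± 0.14 (SE, adjusted p = 0.0162), and MRTFA, a coactivator of serum response factor that actin controls, at 0.64 ± 0.12 (SE, adjusted p = 0.0176). AFG3L2, a protease of the inner mitochondrial membrane, was higher at 0.44 ± 0.079 (SE, adjusted p = 0.0162). COQ10B, a mitochondrial coenzyme Q binding protein, was lower at -0.59 ± 0.10 (SE, adjusted p = 0.0162), and so was TOPORS, a ubiquitin and SUMO ligase, at -0.34 ± 0.068 (SE, adjusted p = 0.0289). These 5 were named after their values were seen. Their changes were small beside those of the DEGs, between -0.59 and 0.82.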

How the data were processed

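RNA of longissimus muscle was sequenced in 17 piglets. The authors trimmed reads with fastp, aligned them with HISAT2 to the pig assembly Sscrofa11.1 and deposited read counts per Ensembl gene from featureCounts (2.0.1 in the file header, Subread 1.5.1 in the submitters' processing notes), counted without strand and without reads that fit several genes. The deposited mean over libraries, another column of values by the authors, served only to check the counts. Gene names came from a gene table for 15029 of 31908 IDs, from the file for 1 and from positions sharing at least 30% with a RefSeq gene for 4401.

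Counts were tested with edgeR 4.0.16 (filterByExpr, TMM, quasi-likelihood F test, R 4.3.3) in UL and ULU pooled against control, with Benjamini-Hochberg adjustment over all 13955 genes. A model of 3 groups gave UL, ULU and ULU minus UL. Values of single measures were compared by exact permutation over all 12376 splits. DESeq2 1.42.0 and limma-voom 3.58.1, scaling, filters, dispersion and left-out libraries were alternatives. On simulated data with the real means, 79% of 2-fold and 99% of 4-fold changes were recovered with the right direction, and 5.32% of calls were false. There the changed genes had a mean above 1 CPM, UL and ULU changed alike and no library was made to stand apart. In the real data calls depended on single libraries, so these rates need not hold for them.

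Genes named are all DEGs, up to 4 members past the adjusted p in each of 37 lists (otherwise the member with the highest CPM), and the 3 genes past it with the smallest p of ULU minus UL; any other is marked as named after its value was seen. The genes and lists were chosen with earlier results of these data known.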

Additional observations from a re-analysis of the deposited data

Results flagged for a closer look

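Dixon's test compared the highest and lowest piglet with the rest of its diet in 99 groups of values, and 9 values stood apart, where chance gives about 1 in 20 groups. Control 25 had 23433672 counted reads against 16335304 to 17773850 in the other controls, and 60.5 CPM of PER1 against 27.3 to 34.3 CPM. UL 32 had 5.72 CPM of IL1RAP against 2.68 to 3.51 CPM in the other UL piglets. ULU 40 had 0.305 CPM of ANPEP against 0.936 to 1.04 CPM in the other ULU piglets.

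The other 5 values are of mitochondrial genes. ATP8 was at 0.566 CPM in UL 27 (11 reads) and at 0.436 CPM in ULU 40 (10 reads), against 932 to 1293 CPM in the other UL and 911 to 1217 CPM in the other ULU piglets. ND6, the gene encoded on the other strand, was at 467 CPM in UL 27 against 1057 to 1496 CPM, and at 1957 CPM in control 25 against 1099 to 1307 CPM. ND4L was at 5928 CPM in ULU 43 against 2789.6 to 3471 CPM. What sets these libraries apart was not tested.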

How the results depend on the processing

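The 104 genes past the adjusted p became 214 with both diets weighted equally in a model of 3 groups (115 higher, 99 lower), 480 with DESeq2 (267 and 213), 54 with no low-count filter (25 and 29) and 161 with a mean of at least 1 CPM (84 and 77); the cause was not tested. DEGs became 23 with DESeq2, with 18 lower both there and in the model of 3 groups. With no limit on the fold change 104 genes passed (53 and 51), and at 1.5-fold 57 did (27 and 30), by construction. RLE scaling, leaving out the mitochondrial chromosome, limma-voom and robust dispersions kept both counts within 1.5 times. Of the 15 DEGs, limma-voom kept 11 (adjusted p = 0.0579 for DDIT4, 0.0817 for PDK4 and 0.0830 for ANPEP, and under a 2-fold change for IL33), robust dispersions kept 14 (not ARG2), and no low-count filter kept 13 (not ATP8A2 and ANPEP). DESeq2 kept 13 and gave no adjusted p for ATP8A2 and HOXC5. Leaving out 1 library gave 0 to 324 genes (0 to 157 higher, 0 to 167 lower) and 0 to 38 DEGs (0 to 12 higher, 0 to 26 lower), lowest without control 23 and highest without control 25. Without UL 27 and ULU 40, chosen after seeing the data, 32 of 77 genes were higher, or 41.6% against 51.0%, and 2 of 10 DEGs were. The mitochondrial protein-coding share differed by -3.47 to -2.88 percentage points with 1 library left out (highest exact p = 0.000229). For the genes named by rule, 1219 values under an alternative were compared: 989 kept direction and call, 218 lost the call and 12 reversed. The 12 were all of CDKN1A and PECAM1, which did not pass. Genes named after their values were seen are not in this count. Among those, EIF2AK4, ATF4, NR4A2, FOS and FBXO32, which did not pass, also changed sign with 1 library left out. FOS ran from -0.27 to 0.35 and FBXO32 from -0.48 to 0.15. CDKN1A (0.048) was -0.068 with limma-voom, -0.13 without UL 27 and ULU 40 and -0.12 to 0.25 with 1 library left out, and PECAM1 (-0.024) was 0.046 without those 2 libraries and -0.16 to 0.039 with 1 left out. No paired analysis was possible because the diets share no replicate number. At 16137365 to 26546810 counted reads, a level under 0.113 to 0.186 CPM (3 reads) could not be told from 0.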
